A study of Lupinus albus with 12 samples.

Results

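Seed storage and late embryogenesis proteins of white lupin (Lupinus albus) were taken as the assembled sequences whose best-hit description, read without regard to case, held the words late embryogenesis, seed storage, cupin, vicilin, oleosin or dehydrin. The description matched for 114 of the 125535 sequences of the expression matrix. Of these, 94 reached a value of 1 or more in at least 3 of the 12 libraries and are described below, and 20 stayed under that limit. The same limit kept 87081 sequences in all. The 94 sequences fell into 48 of the protease inhibitor/seed storage/lipid transfer protein (LTP) family, 22 described as late embryogenesis abundant (LEA), 20 cupins, 3 oleosins and 1 dehydrin. No sequence kept carried the word vicilin.

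The study sequenced RNA of roots and leaves of plants of the variety Ultra grown with or without phosphorus and harvested 14 days after emergence under a 16 h photoperiod. The sufficient medium held calcium phosphate at 1 mM; in the deficient medium calcium sulfate, also at 1 mM, replaced it. There were 3 libraries in each of 4 groups, namely sufficient roots, deficient roots, sufficient leaves and deficient leaves. The labels call the deficient root samples proteoid roots, the bottlebrush-like clusters of short rootlets that white lupin forms, so root type and phosphorus supply cannot be told apart in the root comparison. Nothing in the labels says that the 3 libraries of a group came from separate plants or cultures, so the p-values measure the spread between these libraries.

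Seed storage proteins, which include the cupin-fold vicilins and legumins of legumes and the small cysteine-rich albumins, are laid down in the embryo as a nitrogen and sulfur reserve. LEA proteins and dehydrins are mostly disordered, hydrophilic proteins that accumulate as the seed dries and also in vegetative tissue under drought, cold or salt, and oleosins coat the surface of oil bodies. The cysteine-rich fold of the albumins is shared with protease inhibitors and with lipid transfer proteins, secreted proteins of the cell wall and cuticle, which is why the description of the family joins the 3 names.

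The family name therefore covers more than seed proteins, and the annotation itself separates them. The deposited MapMan class of all 48 sequences of the LTP family was the miscellaneous class of that name, and only 8 of the 94 sequences, all of them cupins, were filed under storage proteins. A further 10 cupins had no assigned function. They were described by an RmlC-type cupin domain and a domain of unknown function, some with a location of the best hit. The other 2 cupins belonged to neither class. Of the LEA sequences, 18 were filed as late embryogenesis abundant. Roots and leaves could be told apart by their own markers: the summed value of 59 sequences of light-harvesting and small Rubisco proteins lay between 77.1 and 119.2 in the 6 root libraries and between 14853.5 and 62745.3 in the 6 leaf libraries, and that of 40 sequences of root patterning and root hair genes between 140.4 and 191.2 in roots and between 25.1 and 65.0 in leaves.

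Values are the authors' normalised expression, taken here to be RPKM, reads normalised for sequence length and library size, and given to 1 decimal, so a sequence listed at 0.0 may have had reads. The read depth is unknown. The third library of deficient leaves stood apart: its 20 highest sequences held 70.91% of its summed value, where the remaining 5 leaf libraries had 12.51% to 17.98% and roots 4.77% to 7.51%, and its median over the sequences kept was 0.9 RPKM, where the remaining leaf libraries had 2.1 to 2.6 RPKM. The first replicate of every group was sequenced without a barcode in a lane of its own, and replicates 2 and 3 were barcoded with 2 libraries to a lane, so sequencing format followed the replicate number and not the group.

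The 94 sequences together made up a small share of the RNA in every library. Their summed value ran from 2796.3 to 5279.0 RPKM in the 6 root libraries and from 750.7 to 2212.0 RPKM in the 6 leaf libraries, or 0.3318% to 0.6487% and 0.0637% to 0.2514% of the library's total. Every root library was above every leaf library, and the lowest leaf library was the deficient one that stood apart. The LTP family held most of the sum in every root library, with 1869.9 to 4065.6 RPKM, against 633.9 to 1038.2 RPKM for the LEA sequences and 128.0 to 197.3 RPKM for the cupins. The median sequence was at 8.6 to 12.65 RPKM in root libraries and at 0.9 to 2.65 RPKM in leaf libraries.

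**Figure D1:**
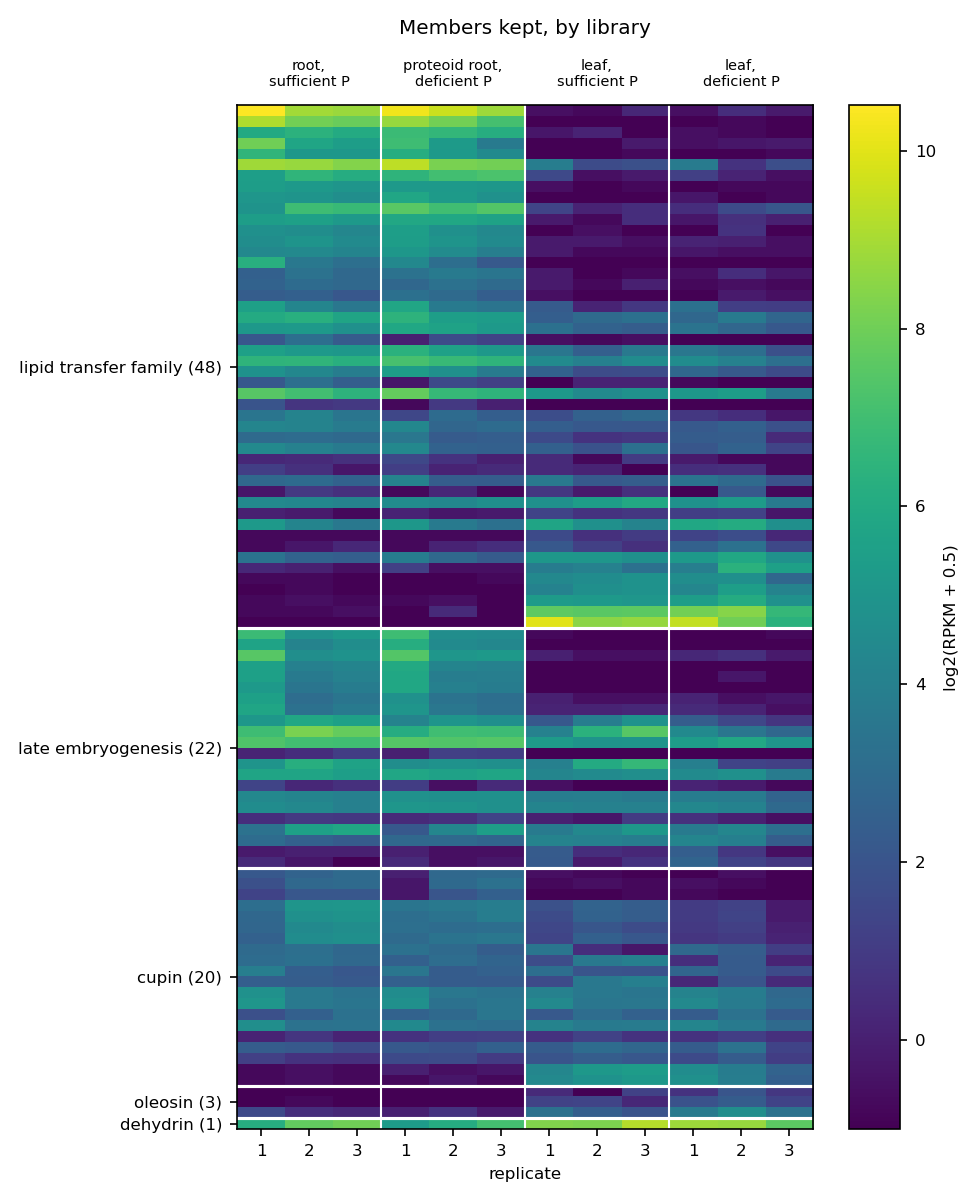
Level of the 94 sequences kept in each of the 12 libraries, as log2(RPKM + 0.5), with sequences in rows grouped by family (number in brackets, ordered within a family by root minus leaf) and replicates 1 to 3 of each group in columns. The upper rows of the LTP and LEA blocks are bright in the 6 root columns and dark in the 6 leaf columns, and the columns of both supplies look alike within a tissue.

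Tissue was the main axis of difference. With sufficient phosphorus, 52 of the 94 sequences were higher in root and 16 were lower (limma on log2(RPKM + 0.5), Benjamini-Hochberg adjusted p under 0.05 over all 87081 sequences), which is 55.3% and 17% of them, against a background of 24.1% higher and 17.8% lower among all sequences tested. With deficient phosphorus, 55 were higher in root and 17 lower, against a background of 29% and 13.2%. The median difference, root minus leaf, was 1.81 on the log2(RPKM + 0.5) scale with sufficient and 1.79 with deficient phosphorus, and 0.19 and 0.42 over all sequences. Both comparisons called 48 sequences higher in root (51.1%, background 20.6%) and 13 higher in leaf (13.8%, background 12%), none was called in opposite directions, and 15 were called in neither. In bulk tissue, fewer cells of a type and less RNA per cell cannot be told apart.

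The separation was complete for many sequences. For 47 of the 94 the lowest of the 6 root libraries was above the highest of the 6 leaf libraries, against a background of 23.5%, and for 13 the reverse held, against 10.5%. A value under 1 in all 6 leaf libraries was found for 28 sequences (background 12%) and a value under 1 in all 6 root libraries for 14 (background 10.5%). These 28 and 14 sequences passed the limit on low values through the libraries of 1 tissue alone, so all their values of 1 or more lay in that tissue. The limit did not force a call, but their part of the counts above largely follows from it. Scaling the libraries by the median of ratios moved the median of all sequences by -0.13 and -0.35 (log2) in the sufficient and deficient tissue comparisons. It left 51 members higher and 18 lower, and 52 higher and 20 lower. Of all 87081 sequences the scaled fit called 22748 higher and 21697 lower with sufficient phosphorus, and 22903 and 19666 with deficient phosphorus. The background lower was thus larger than the 15512 and 11489 of the unscaled fit.

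**Figure D2:**
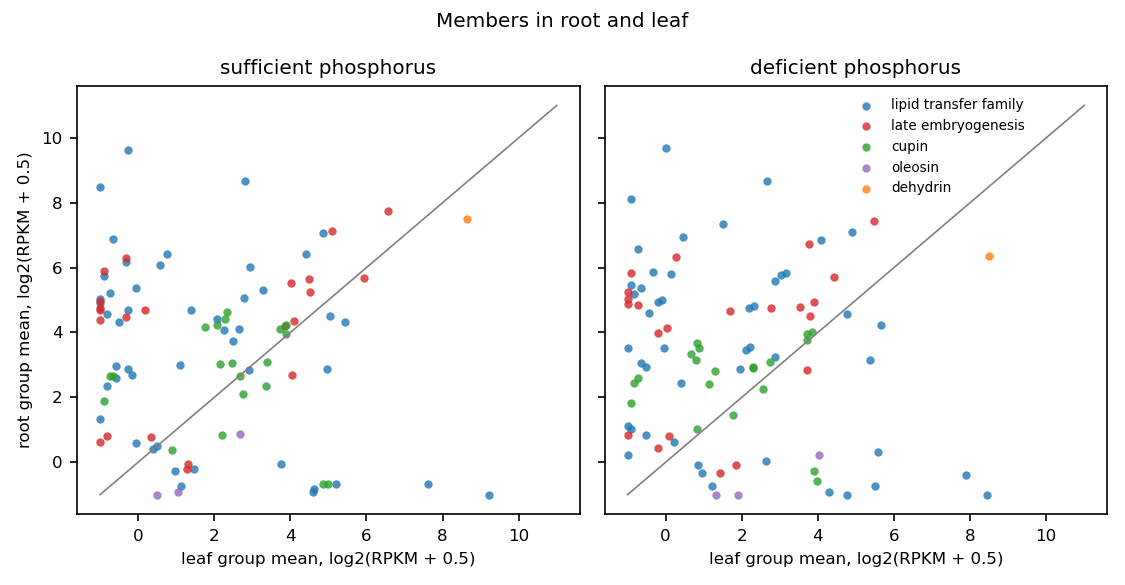
Group mean of each of the 94 sequences in root (vertical) against leaf (horizontal), both as log2(RPKM + 0.5), with sufficient phosphorus on the left and deficient phosphorus on the right. Each point is 1 sequence coloured by family and the grey line marks equal levels. LTP and LEA points fill the upper left, the 3 oleosins and the dehydrin lie below the line, and the 2 panels have the same shape.

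The LTP family split into a root set and a leaf set. At both supplies 29 of its 48 sequences were higher in root and 9 higher in leaf (60.4% and 18.8%, against the backgrounds of 20.6% and 12%). Of the 48, 16 were under 1 RPKM in all 6 leaf libraries and 8 in all 6 root libraries. These passed the limit on low values through 1 tissue alone, so their part of these counts largely follows from it. For those among them named below, the tissue differences and p-values are given as a description. The highest of the root set, LAGI01_58509, stood at 1457.5, 476.1 and 432.8 RPKM in sufficient roots and at 1246.4, 769.3 and 452.9 RPKM in deficient roots, and at 0.1 to 0.9 RPKM in the 6 leaf libraries. All root libraries were far above all leaf libraries and the first replicate was the highest of each root group. The difference, root minus leaf, was 9.72 ± 0.532 (standard error, n = 3 against 3, limma adjusted p = 8.99e-10) on the log2(RPKM + 0.5) scale with sufficient phosphorus and 9.63 ± 0.532 (limma adjusted p = 1.09e-09) with deficient phosphorus. Because the leaf values lie near the pseudocount, the size of these differences depends on it.

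LAGI01_65596 was at 568.6, 265.7 and 235.4 RPKM in sufficient roots and at 425.0, 266.3 and 140.3 RPKM in deficient roots. In leaves it was listed at 0.0 in 5 of the 6 libraries and at 0.1 in the other, and it was called higher in root at both supplies (limma adjusted p = 3.10e-10 and 5.34e-10). LAGI01_68123 was also found in leaf: it was at 461.4, 427.8 and 329.9 RPKM in sufficient roots, 649.9, 295.3 and 264.1 RPKM in deficient roots, 14.0, 2.6 and 3.0 RPKM in sufficient leaves and 13.5, 1.1 and 2.9 RPKM in deficient leaves. Its tissues did not overlap, and the first replicate was the highest in each of the 4 groups (root minus leaf 6.22 ± 0.703, limma adjusted p = 1.92e-06, and 6.45 ± 0.703, adjusted p = 1.58e-06). LAGI01_58509 led the family in all 6 root libraries, and the highest 3 sequences of each library held 47.54% to 63.89% of the family's sum there.

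Other sequences of the root set were lower but as sharply divided. LAGI01_79071, whose match to an Arabidopsis protein of the family is described as very weak, was at 62.6, 84.9 and 66.0 RPKM in sufficient roots and 115.5, 99.1 and 70.7 RPKM in deficient roots, and at 0.0 to 0.6 RPKM in leaves. It was 6.55 ± 0.385 higher in root with sufficient and 7.30 ± 0.385 higher with deficient phosphorus (limma adjusted p = 1.71e-09 and 7.19e-10). LAGI01_77105, described as LTP-related, was at 25.2 to 55.9 RPKM in the 6 root libraries and at 0.0 to 0.3 RPKM in the 6 leaf libraries. LAGI01_53539 ran from 42.9 to 90.7 RPKM in sufficient roots and from 90.5 to 153.2 RPKM in deficient roots, against 0.2 to 2.4 RPKM in leaves, so that the 2 root groups overlapped by a narrow margin. LAGI01_60690 was at 259.9, 53.4 and 41.9 RPKM in sufficient roots, 122.8, 37.9 and 12.9 RPKM in deficient roots and 0.0 to 0.4 RPKM in leaves, with the first replicate the highest of each root group. LAGI01_69066 was at 91.1, 33.6 and 33.3 RPKM and at 72.0, 35.4 and 22.6 RPKM in the same root groups and at 0.0 or 0.1 RPKM in leaves.

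The leaf set was led by 2 sequences. LAGI01_85567 was at 1012.7, 360.5 and 409.5 RPKM in sufficient leaves and at 694.6, 260.9 and 81.2 RPKM in deficient leaves, and was listed at 0.0 in all 6 root libraries. The tissues did not overlap (limma adjusted p = 1.97e-09 with sufficient and 7.25e-09 with deficient phosphorus), the 2 leaf groups did, and the lowest leaf value was in the library that stood apart. LAGI01_64933 was at 200.2, 190.1 and 192.3 RPKM in sufficient leaves and at 264.1, 342.9 and 101.6 RPKM in deficient leaves, against 0.0 to 0.8 RPKM in roots. The sufficient leaf libraries lay close together (194 ± 5.31 RPKM, SD, n = 3) and the deficient ones spread around them (236 ± 123 RPKM), and the root-minus-leaf difference was -8.27 ± 0.481 and -8.26 ± 0.481 (limma adjusted p = 1.53e-09 and 1.74e-09). LAGI01_85567 or LAGI01_64933 led the family in every leaf library, and the highest 3 sequences there held 56.00% to 80.64% of the family's sum.

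Lipid transfer proteins that do not carry the seed storage name were mostly on the leaf side. Of 28 such sequences kept, among them those matching LTP1, LTP2 and LTP4 of Arabidopsis, 17 were lower in root with sufficient phosphorus and 21 with deficient phosphorus, and 2 were higher in root at each supply, that is 60.7% and 75% lower against the backgrounds of 17.8% and 13.2%. Both called sequences on the root side with sufficient phosphorus matched DIR1, a lipid transfer protein of systemic resistance in Arabidopsis, at 5.32 and 4.75 (log2(RPKM + 0.5) scale) for LAGI01_63595 and LAGI01_67496, while another DIR1 match, LAGI01_34584, was lower in root (-2.26, limma adjusted p = 0.00616). The median root-minus-leaf difference of these 28 sequences was -3.43 and -4.33 on that scale. That of the 48 sequences of the seed storage family was 2.27 and 2.33. How many of the 28 passed the limit on low values through 1 tissue alone was not counted. The tissue call of any such sequence largely follows from that limit.

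LEA sequences were higher in root or did not pass the test, with 1 exception at each supply. With sufficient phosphorus 13 of 22 were higher in root and 1 lower, and with deficient phosphorus 16 were higher and 1 lower (2 lower after scaling by the median of ratios). Both comparisons called the same direction for 12, all higher in root (54.5%, background 20.6%). The median difference, root minus leaf, was 1.62 with sufficient and 2.30 with deficient phosphorus on the log2(RPKM + 0.5) scale. Of the 22, 9 were under 1 RPKM in all 6 leaf libraries and 2 in all 6 root libraries. These passed the limit on low values through 1 tissue alone, so their part of the counts largely follows from it. LAGI01_62325, of LEA group 1 and among them, was not called at either supply (limma adjusted p = 0.178 and 0.104). The sequence called lower in root with sufficient phosphorus was LAGI01_38310, a putative LEA protein at 4.5 to 7.8 RPKM in the 6 root libraries and 14.3 to 17.3 RPKM in sufficient leaves (-1.39 ± 0.449, limma adjusted p = 0.0195). With deficient phosphorus it was LAGI01_54957, of LEA group 1, at 0.2 to 0.8 RPKM in roots and 1.3 to 6.1 RPKM in leaves of that supply (limma adjusted p = 0.0202). LAGI01_54957 was under 1 RPKM in all 6 root libraries, so it is among the sequences that passed the limit through leaf alone.

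The 8 sequences described as LEA protein-related were root sequences. All but LAGI01_44335 were under 1 RPKM in all 6 leaf libraries. They passed the limit on low values through root alone, so their tissue calls largely follow from it. As a description, all 8 were higher in root at both supplies, with differences between 4.07 and 6.51 (log2(RPKM + 0.5) scale) with sufficient and between 3.92 and 6.29 with deficient phosphorus, and their leaf values ran from 0.0 to 1.0 RPKM, so that the size of these differences also depends on the pseudocount. LAGI01_44335, the highest, was at 180.7, 25.4 and 29.0 RPKM in sufficient roots and at 172.3, 32.1 and 37.2 RPKM in deficient roots. The first replicate was several times above the others in both root groups, and the 2 supplies overlapped. LAGI01_79731 had the same form, at 113.6, 27.7 and 35.0 RPKM and at 120.7, 24.7 and 22.9 RPKM, with 0.0 or 0.1 RPKM in leaves (6.51 ± 0.578, limma adjusted p = 1.29e-07, and 6.29 ± 0.578, adjusted p = 2.31e-07). The profiles of the 8 over the 12 libraries had a Pearson's r of 0.979 to 1.000 between members on the log2 scale as a description. This r is mostly the difference between root and leaf. Within root the 8 were less alike. In replicate 1 deficient minus sufficient ran from -0.76 for LAGI01_43511 to 0.65 for LAGI01_45007 (log2(RPKM + 0.5) scale). How the authors assigned reads that match several near-identical sequences is not given in the sources used here, so these 8 may share reads and are not 8 separate observations.

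Other LEA sequences were present in both tissues. LAGI01_41800, of the LEA family, was at 159.9, 128.8 and 126.9 RPKM in sufficient roots, 177.3, 165.3 and 179.0 RPKM in deficient roots, 39.9, 29.8 and 30.4 RPKM in sufficient leaves and 40.9, 59.7 and 31.7 RPKM in deficient leaves. Roots were above leaves in every library (2.04 ± 0.386, limma adjusted p = 0.000385, and 2.01 ± 0.386, adjusted p = 0.000497), and the 3 deficient roots lay above the 3 sufficient ones without passing the test (0.33 ± 0.386, adjusted p = 1). LAGI01_60226, a putative LEA protein and the highest LEA sequence on average, was at 122.1, 296.0 and 222.3 RPKM in sufficient roots, 69.1, 127.5 and 116.6 RPKM in deficient roots, 16.2, 80.8 and 185.6 RPKM in sufficient leaves and 21.7, 11.1 and 6.6 RPKM in deficient leaves. It passed the tissue test with deficient phosphorus alone (3.05 ± 0.694, limma adjusted p = 0.00201), with 1.67 ± 0.694 (adjusted p = 0.0639) with sufficient phosphorus, and the tissue difference itself was not shown to depend on supply (adjusted p = 0.869).

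Cupins were divided by kind. Of the 20, 7 were higher in root at both supplies (35%, background 20.6%) and 2 higher in leaf at both (10%, background 12%), and the median difference of the 20 was small, at 0.24 and 0.69 (log2(RPKM + 0.5) scale). Among the 20, 3 were under 1 RPKM in all 6 leaf libraries and 2 in all 6 root libraries. These passed the limit on low values through 1 tissue alone, so their part of the cupin counts largely follows from that limit. The 8 cupins filed as storage proteins were low in both tissues, between 3.9 and 32.7 RPKM in roots and between 0.4 and 20.8 RPKM in leaves. Of these 8, 7 fell into 2 profiles, and LAGI01_75713, at 2.5 to 14.9 RPKM over the 12 libraries, joined neither. In the first, of LAGI01_35529, LAGI01_34746, LAGI01_25845 and LAGI01_36547 (r from 0.984 to 0.996 over 12 libraries), roots were above leaves, with LAGI01_35529 at 8.4, 31.7 and 32.7 RPKM in sufficient roots, 10.7, 12.0 and 14.0 RPKM in deficient roots, 3.1, 5.8 and 4.8 RPKM in sufficient leaves and 1.5, 1.9 and 0.4 RPKM in deficient leaves (2.10 ± 0.506, limma adjusted p = 0.00285, and 2.96 ± 0.506, adjusted p = 0.000175). These were the 4 storage-class cupins called in the tissue comparisons.

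In the second profile, of LAGI01_46448, LAGI01_38722 and LAGI01_34836, root and leaf were at the same level. LAGI01_46448 was at 32.2, 12.1 and 10.6 RPKM in sufficient roots, 26.6, 9.3 and 10.9 RPKM in deficient roots, 20.7, 10.8 and 11.2 RPKM in sufficient leaves and 20.8, 13.5 and 7.7 RPKM in deficient leaves. All 4 groups overlapped, and the first replicate was the highest in each. The difference between tissues was 0.24 ± 0.531 (limma adjusted p = 0.757) with sufficient and 0.10 ± 0.531 (adjusted p = 0.896) with deficient phosphorus. Members of each profile may share reads, as above.

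Of the 10 cupins without an assigned function, LAGI01_58792 and LAGI01_68621 were leaf sequences. LAGI01_58792, whose best hit is described as a chloroplast protein, was at 19.1, 34.2 and 40.9 RPKM in sufficient leaves and 23.7, 13.7 and 5.9 RPKM in deficient leaves, against 0.1 to 0.5 RPKM in roots. Every leaf library was above every root library (-5.59 ± 0.440, limma adjusted p = 3.43e-08, and -3.98 ± 0.440, adjusted p = 1.83e-06). Both leaf sequences were under 1 RPKM in every root library. They passed the limit on low values through leaf alone, so their tissue calls largely follow from it. Another 3, LAGI01_59454, LAGI01_73863 and LAGI01_75858, were on the root side, at 0.3 to 9.3 RPKM in roots and 0.0 to 0.2 RPKM in leaves. These 3 passed the limit through root alone, and the same holds for their tissue calls. Their lowest root value was in the first deficient replicate, with 0.5 RPKM for LAGI01_59454 against 6.8 and 7.5 RPKM in the other 2.

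The 3 oleosins kept, all described as glycine-rich protein / oleosin, and the dehydrin were on the leaf side. LAGI01_59683, the highest oleosin, was at 9.3, 5.0 and 3.4 RPKM in sufficient leaves and 13.0, 24.9 and 9.5 RPKM in deficient leaves, against 2.4, 0.9 and 0.7 RPKM in sufficient roots and 0.5, 1.1 and 0.4 RPKM in deficient roots. All leaf libraries were above all root libraries (root minus leaf -1.81 ± 0.460, limma adjusted p = 0.00423, and -3.74 ± 0.460, adjusted p = 6.01e-06). LAGI01_53446 reached 4.6 RPKM in leaf and 0.1 RPKM in root, and LAGI01_76042 reached 3.6 RPKM in leaf and was listed at 0.0 in all root libraries. The first of these was called lower in root at both supplies and the second with deficient phosphorus (limma adjusted p = 0.0023, and 0.0643 with sufficient). Both were under 1 RPKM in every root library. They passed the limit on low values through leaf alone, so their calls largely follow from it. Caleosins, calcium-binding proteins that sit on oil bodies beside the oleosins, were on the other side. Of 15 kept, 11 were higher in root with sufficient and 14 with deficient phosphorus (73.3% and 93.3%, backgrounds 24.1% and 29%). None was called lower. Caleosins that passed the limit on low values through 1 tissue alone were not counted.

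Dehydrin LAGI01_63281 had the highest mean over all 12 libraries of any member outside the LTP family. It was at 320.7, 297.4 and 590.4 RPKM in sufficient leaves, 446.7, 431.3 and 195.9 RPKM in deficient leaves, 71.0, 212.5 and 258.0 RPKM in sufficient roots and 39.7, 69.3 and 134.8 RPKM in deficient roots. Leaves were above roots at each supply, and the lowest leaf library overlapped the sufficient roots. With deficient phosphorus the root-minus-leaf difference passed the test (-2.21 ± 0.566, limma adjusted p = 0.0047), and with sufficient phosphorus it did not (-1.28 ± 0.566, adjusted p = 0.0802).

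Phosphorus supply called none of the 94 sequences in root or leaf, and the difference between the 2 responses called none. With the replicate number as a block within each tissue, 2 were called lower in root and 1 lower in leaf. The backgrounds were low as well, at 0.245% higher and 0.0345% lower of all sequences in root, 0.0103% and 0.0172% in leaf and 0.0586% and 0.00115% for the difference, so a count of 0 among 94 is near what all sequences gave. At an unadjusted limma p under 0.05 there were 4 sequences in root (4.26%, background 4.31%), 16 in leaf (17%, background 7.76%) and 6 for the difference (6.38%, background 5.93%). The median change, deficient minus sufficient, was 0 in root and -0.04 in leaf on the log2(RPKM + 0.5) scale, against 0 and -0.24 over all sequences, and scaling by the median of ratios moved the median of all sequences in leaf by 0.20. In root the groups did not overlap for 5 sequences on the higher side and 5 on the lower (background 6.79% and 4.39%), and in leaf for 1 and 7 (background 0.722% and 4.45%).

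In root the smallest p-values belonged to sequences of the LTP family with low levels. LAGI01_62296 was at 4.0, 8.7 and 5.0 RPKM in sufficient roots and at 0.3, 2.5 and 1.8 RPKM in deficient roots. LAGI01_24265, which had nearly the same profile (r = 0.970), was at 3.8, 8.3 and 4.5 RPKM and at 0.5, 2.6 and 1.9 RPKM. Neither overlapped between supplies, and in both the first replicate was the lowest of its group. The changes were -1.79 ± 0.472 (limma adjusted p = 0.222) and -1.56 ± 0.410 (adjusted p = 0.221), and both passed when the replicate number was fitted as a block within root (adjusted p = 0.0452 and 0.0362), a fit that called 0.189% of all sequences lower and these 2 members.

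LAGI01_42403, also of the LTP family, lay among the 4 smallest p-values in both tissues. It was at 10.5, 17.1 and 10.7 RPKM in sufficient roots, 2.2, 7.6 and 4.9 RPKM in deficient roots, 2.8, 5.5 and 7.2 RPKM in sufficient leaves and 1.3, 0.9 and 0.3 RPKM in deficient leaves. Every deficient library was below every sufficient library of its tissue. The change was -1.40 ± 0.463 (limma adjusted p = 0.544) in root and -2.08 ± 0.463 (adjusted p = 0.143) in leaf, and the 2 responses were not shown to differ (0.68 ± 0.655, adjusted p = 0.885). LAGI01_63123, at 3.5, 1.2 and 1.4 RPKM in sufficient and 0.1, 1.4 and 0.5 RPKM in deficient roots, overlapped between supplies (limma adjusted p = 0.826).

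The smallest p in leaf was that of LAGI01_15424, which matches LEA14, also named LSR3 in Arabidopsis for its response to light stress. It was at 15.4, 66.1 and 101.2 RPKM in sufficient leaves and at 15.3, 2.0 and 1.8 RPKM in deficient leaves. The groups met at the first replicate, with 15.4 against 15.3 RPKM, and were far apart in the other 2. The change was -3.40 ± 0.713 (limma adjusted p = 0.113). In the barcoded replicates 2 and 3 alone it was -5.10 ± 0.565 (adjusted p = 4.97e-09), and in the unbarcoded first replicate alone the difference between its 2 leaf libraries was -0.01 on the same scale. In root it was at 30.1, 72.7 and 48.4 RPKM with sufficient and 24.5, 28.4 and 26.2 RPKM with deficient phosphorus, which did not overlap (-0.84 ± 0.713, limma adjusted p = 1).

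Clock genes differed between the same leaf libraries. The mean log2 level of 35 sequences matching the morning genes LHY and CCA1 minus that of 40 matching the evening genes TOC1, GI and PRR5 came to 1.38, -2.37 and -2.28 for the sufficient leaf libraries and to 3.05, 1.97 and 1.45 for the deficient ones. The 2 libraries with the highest LEA14 level, replicates 2 and 3 of sufficient leaves, were the only leaf libraries with a negative difference. Among the other 4 leaf libraries, replicate 1 of sufficient and replicate 3 of deficient leaves had clock differences of 1.38 and 1.45, and 15.4 and 1.8 RPKM of LEA14. Every sufficient leaf library had a lower clock difference than every deficient one, so clock difference and supply cannot be told apart in leaf. With this clock difference as a covariate the change of LAGI01_15424 was -2.37 (limma adjusted p = 0.611). That fit called 0 of all 87081 sequences in leaf, so the lack of a call is not particular to LAGI01_15424. The part of the sampling time or of the clock in the result was not tested. The other LEA14 sequence, LAGI01_66061, was at 4.0, 14.3 and 29.0 RPKM in sufficient and 4.8, 2.2 and 1.2 RPKM in deficient leaves (-2.11 ± 0.589, limma adjusted p = 0.287). In it and in LAGI01_60226 above (-2.37 ± 0.694, limma adjusted p = 0.319) the deficient library was the higher one in replicate 1 and the lower one in replicates 2 and 3.

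After LAGI01_15424 and LAGI01_42403, cupins followed in order of p in leaf. LAGI01_58568 was at 2.6, 11.8 and 15.0 RPKM in sufficient and 0.7, 3.6 and 0.8 RPKM in deficient leaves (-2.18 ± 0.546, limma adjusted p = 0.219). LAGI01_72745, with a like profile (r = 0.955), was at 2.7, 12.1 and 15.2 RPKM and at 0.9, 4.4 and 0.6 RPKM (-2.13 ± 0.580, adjusted p = 0.268). In both, 1 deficient library overlapped the lowest sufficient library, and within each replicate number the deficient library was the lower. With the replicate number as a block within leaf LAGI01_58568 passed the test (adjusted p = 0.0491), in a fit that called 0.229% of all sequences lower.

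The 4 storage-class cupins of the first profile did not overlap between supplies in leaf. LAGI01_34746 was at 2.6, 5.7 and 4.7 RPKM in sufficient and 1.5, 2.1 and 0.4 RPKM in deficient leaves, and LAGI01_25845 at 2.1, 5.3 and 3.8 and at 1.2, 1.5 and 0.6 RPKM. The changes of the 4 lay between -1.60 ± 0.506 for LAGI01_35529 and -1.02 ± 0.467 for LAGI01_36547 (limma adjusted p from 0.371 to 0.63). The lowest value of each was in the library that stood apart. In root the same 4 were highest in replicates 2 and 3 of sufficient roots, at 31.7 and 32.7 RPKM for LAGI01_35529, and its first sufficient replicate, at 8.4 RPKM, was below all 3 deficient ones.

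Oleosin LAGI01_59683 was the only member whose deficient leaves all lay above its sufficient leaves, at 9.5 to 24.9 RPKM against 3.4 to 9.3 RPKM (1.34 ± 0.460, limma adjusted p = 0.427). LAGI01_59777 of the LTP family showed the largest positive change, at 13.7, 16.1 and 9.0 RPKM in sufficient and 14.7, 82.2 and 45.9 RPKM in deficient leaves, and its first replicate lay within the sufficient range (1.57 ± 0.566, limma adjusted p = 0.468).

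**Figure D3:**
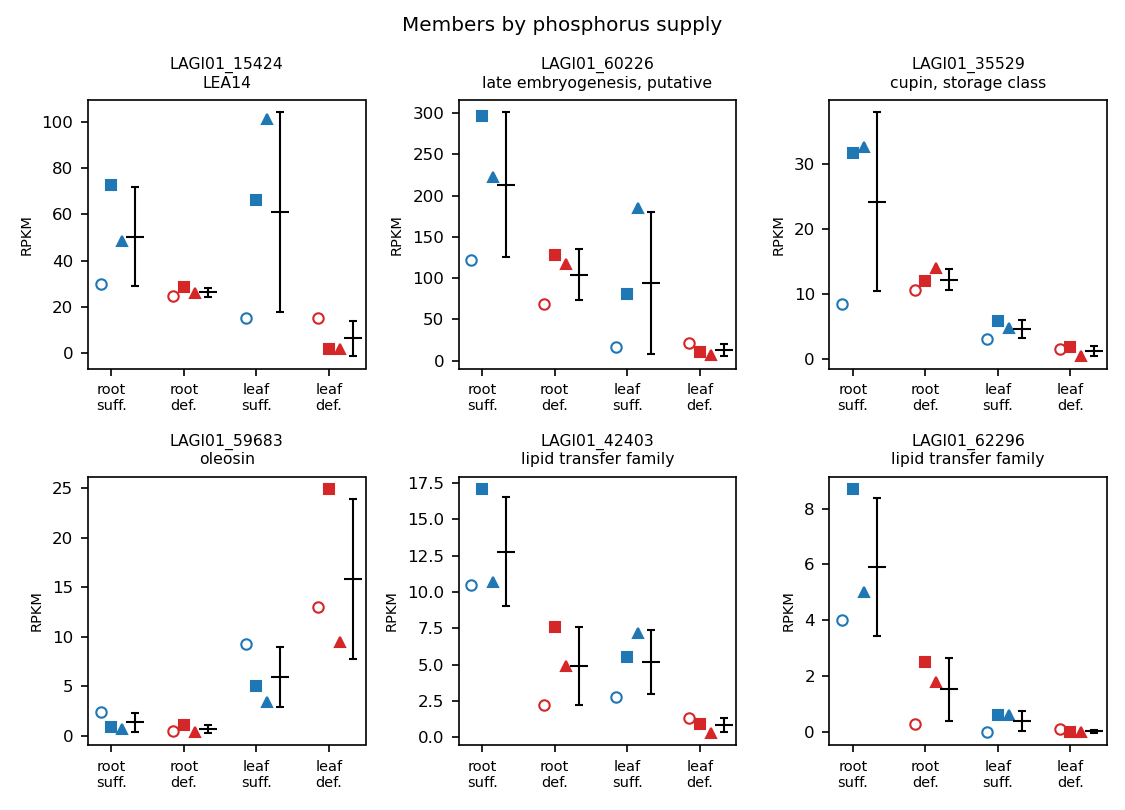
Level in RPKM of 6 sequences in each library, by tissue and supply (blue sufficient, red deficient), with open circles for replicate 1, squares for replicate 2, triangles for replicate 3, and the group mean ± SD (n = 3) in black at the right of each group. In leaf, LAGI01_15424 is at 66.1 and 101.2 in sufficient replicates 2 and 3 and at 2.0 and 1.8 in the deficient ones, while the open circles are at 15.4 and 15.3.

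The leaf count was not 0 without the first replicates. In the barcoded libraries (replicates 2 and 3) alone, 11 of the 94 sequences were called lower and 3 higher in deficient leaves, against a background of 5.26% and 0.726%, and 1 was called for the difference of responses (LAGI01_15424, background 1.51% higher). In root the same libraries called none of them, against 0.272% higher and 0.235% lower. The 11 comprised both LEA14 sequences, LAGI01_60226, the 3 cupins LAGI01_35529, LAGI01_34746 and LAGI01_25845 of the storage class, the 4 cupins LAGI01_58792, LAGI01_68621, LAGI01_58568 and LAGI01_72745, and LAGI01_42403, and the 3 were LAGI01_59777, LAGI01_59683 and the cupin LAGI01_60249. The split by format is also the split by replicate number, so the 2 cannot be told apart. Each group then holds 2 libraries, and 1 of the deficient pair is the one that stood apart. Leaving out only the first replicate of sufficient leaves gave 6 called lower (background 1.5%), and leaving out only that of deficient leaves gave 1 (background 0.54%).

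Related gene lists gave no calls with supply. Abscisic acid is the hormone that induces many LEA, dehydrin and oleosin genes in seeds. Of 131 sequences of abscisic acid signalling and turnover and of 88 described as responsive to dehydration or cold, none was called in root, in leaf or for the difference, and none of the 15 caleosins, 21 germin-like proteins (cupin-fold proteins of the cell wall), 28 other lipid transfer proteins or the 1 cruciferin (an Arabidopsis storage globulin) was called either. The backgrounds in either direction were 0.279% in root, 0.0276% in leaf and 0.0597% for the difference. Counts of 0 in lists of these sizes are therefore near what all sequences gave. Between tissues, 41 of the 131 abscisic acid sequences were higher in root and 16 lower with sufficient phosphorus (31.3% and 12.2%, backgrounds 24.1% and 17.8%), and 54 and 15 with deficient phosphorus (41.2% and 11.5%, backgrounds 29% and 13.2%). Of the 88, 34 and 14, and then 41 and 8, were called in the same order (38.6% and 15.9%, and 46.6% and 9.09%). Of the germin-like proteins 10 and 4, and 13 and 4, were called, which is 47.6% and 61.9% higher and 19% lower at each supply. The cruciferin was lower in root at both supplies. How many sequences of these lists passed the limit on low values through 1 tissue alone was not counted. Tissue calls of any such sequence largely follow from that limit, and this may hold for the cruciferin.

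Within roots the first replicate differed from the others for many members. Replicate 1 was at least 2-fold above the mean of replicates 2 and 3 over both supplies for 23 of the 94 sequences, on the log2(RPKM + 0.5) scale (24.5%, background 7.15%), and at least 2-fold below it for 10 (10.6%, background 9.81%). In leaf the counts were 9 (9.57%, background 4.84%) and 2 (2.13%, background 2.56%). The higher ones in root included all 8 LEA protein-related sequences, from 1.52 for LAGI01_45177 to 2.51 for LAGI01_44335, LAGI01_58509 and LAGI01_65596 of the LTP family, and 4 storage-class cupins. The lower ones included the dehydrin (-1.49), the LEA sequence LAGI01_59784 (-2.53) and 3 storage-class cupins of the first profile, so that the cupins of the 2 profiles lay on opposite sides. Replicate 1 libraries were also the unbarcoded ones. The clock difference was -0.38 and 0.68 in the replicate 1 roots and -2.37 to -0.84 in the other 4, and the part of either in these differences was not tested.

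**Figure D4:**
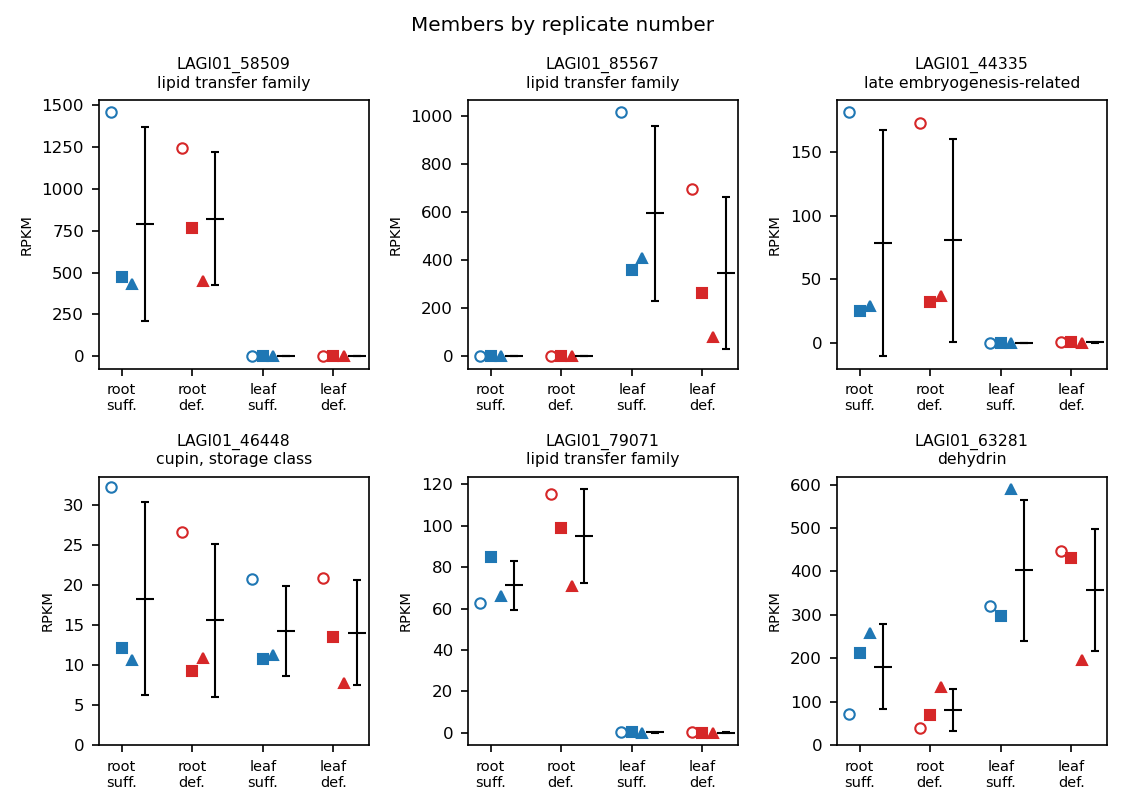
Level in RPKM of 6 sequences in each library, drawn as in the plot of members by phosphorus supply, with open circles for the unbarcoded replicate 1. The open circles lie highest in root for LAGI01_58509, LAGI01_44335 and LAGI01_46448, at 1457.5, 180.7 and 32.2 in sufficient roots, and lowest in root for the dehydrin, at 71.0 and 39.7.

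Members of a family often had like profiles over the 12 libraries. At a Pearson's r of 0.95 or more to at least 1 other sequence of the set, on the log2 scale, 25 sequences of the LTP family joined in a root set and 6 in a leaf set, and the 8 LEA protein-related sequences in 1 set. These correlations are mostly the difference between root and leaf, since libraries of both tissues enter them. The 2 sequences of unknown function with a LEA best match, LAGI01_40851 and LAGI01_52103, joined each other (r = 0.973). LAGI01_40851 was at 20.2, 17.6 and 15.5 RPKM in sufficient roots and at 28.0, 25.9 and 27.2 RPKM in deficient roots, and LAGI01_52103 at 23.5, 20.2 and 15.6 and at 32.4, 30.3 and 27.0 RPKM. The deficient roots were above the sufficient ones in both without passing the test (0.60 ± 0.393 and 0.60 ± 0.413, limma adjusted p = 1). Leaves were at 5.9 to 14.8 and 7.2 to 19.3 RPKM, and both sequences were called higher in root with deficient phosphorus (limma adjusted p = 0.0108 and 0.035).

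Of the 20 sequences left out, 12 were at 1 or more in 2 libraries, with highest values of 1.2 to 3.4 RPKM, and the 3 members that only just passed had highest values of 1.8 to 5.0 RPKM. The sequences left out included 4 of the 7 oleosins and 2 of the 4 matches to LEA14. Both matches to OLEO1, the main seed oleosin of Arabidopsis, were among these oleosins. LAGI01_72897 reached 1.6 RPKM in a root library and 0.3 RPKM in leaf, and LAGI01_86731 reached 2.2 RPKM in a leaf library and 0.1 RPKM in root. All but 1 of the 20 stayed at or below 3.4 RPKM in every library.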

How the data were processed

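RNA of roots and leaves was sequenced as single reads of 76 cycles, per the labels' protocols, and the submitters' processing notes name Bowtie. The authors deposited 1 value per assembled sequence and library with 1 decimal. The authors' deposited values were taken to be RPKM, mapped reads normalised by the authors for sequence length and library size, because the values sum to 802814.9 to 1178058.3 per library and the unit is not given in the sources used here. The counting, the treatment of reads with several matches and the depth are not given either. Descriptions and MapMan classes came from the authors' deposited annotation. No sequences were used. The 2 unnamed columns of the matrix were empty.

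The filter asked for 1 RPKM in 3 of the libraries, and log2(RPKM + 0.5) was fitted with limma 3.58.1 (R 4.3.3, intensity trend, 4 group means, 12 libraries). The 5 contrasts were each adjusted by Benjamini-Hochberg over 87081 sequences with a threshold of 0.05. Differences understate the change of low sequences. The fit was tested on simulated data. Members, lists and tests were chosen with earlier results of these data known, and list patterns that caught wrong genes were mended after descriptions and values had been seen. Named members are the 3 highest of each family (1 per identical description), up to 8 called members with the largest change and no overlap in each contrast, and the 4 smallest p in each phosphorus comparison. Further members named (other storage-class cupins, oleosins, LEA14, LAGI01_59777, LAGI01_38310, and those of the replicate and profile paragraphs) were chosen after their values were seen.

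Replicate numbers are shared by the groups. Same-numbered libraries deviated together from their group means within root (r = 0.751, 0.399 and 0.644) and within leaf (0.237, 0.237 and 0.126), so the numbers meet the rule for pairs in the phosphorus comparisons. In root, however, replicate 2 of 1 supply and replicate 3 of the other had r of 0.441 and 0.472. Unlike-numbered root pairs with a replicate 1 had -0.706 to -0.496. The root values thus set replicate 1 apart from replicates 2 and 3 and do not show 3 matched pairs. In leaf, unlike-numbered pairs had -0.301 to 0.106. The values reported are from the fit without a block, and the blocked fit is given beside the results it changes. Between tissues the rule was not met (0.34, 0.069 and 0.217 with sufficient, 0.022, -0.223 and 0.172 with deficient phosphorus).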

Additional observations from a re-analysis of the deposited data

Results flagged for a closer look

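LAGI01_79726, a sequence of the LTP family outside the comparisons because it passed 1 RPKM in 1 library alone, was at 24.3 RPKM in replicate 3 of deficient leaves and was listed at 0.0 in the other 11 libraries. It drew attention as a signal in unused data above every sufficient library. It rests on the library whose 20 highest sequences held 70.91% of the summed value, and the part of that library in the value was not tested.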

How the results depend on the processing

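The tissue counts held under every alternative run. Without 1 library they ranged from 48 to 53 higher and 14 to 17 lower in root with sufficient phosphorus, and from 49 to 55 and 15 to 20 with deficient phosphorus. The share of all sequences called in either direction moved as well. In the same fits it ranged from 33.8% to 49.9% with sufficient and from 32.4% to 42.7% with deficient phosphorus. With the library weights described below it was 76.2% and 57.7%. The phosphorus counts of 0 did not. Without 1 library the leaf count lower ranged from 0 to 6, and all other phosphorus counts stayed at 0. The barcoded libraries alone gave 3 higher and 11 lower in leaf and 1 higher for the difference of responses. The replicate block within each tissue gave 2 lower in root and 1 lower in leaf, and a block over all 12 libraries changed no phosphorus count. Weighting libraries by quality gave 3 higher and 15 lower in root, 3 and 8 in leaf, and 2 and 5 for the difference, with weights from 0.078 to 7.125 estimated gene by gene, a method taken after the default estimate did not converge, and that fit called 6.15% higher and 8.28% lower of all sequences in root, 1.34% and 1.87% in leaf, and 3.8% and 4.36% for the difference. The cause was not tested. Of the values of the 94 members, none that was called changed sign under any alternative, and uncalled values near 0 did, such as the dehydrin in leaf (-0.19, and 0.12 with median-of-ratios scaling) and the median of the LTP family for the difference of responses (0.03 and -0.21). Other settings (pseudocounts of 0.1 and 1, no filter, a filter of 5 RPKM, median-of-ratios scaling, a fit of the compared groups alone, and the clock difference as a covariate) changed no count by over 1.5 times. Depth is unknown, so low values carry an unknown counting error.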
